A study of Mus musculus with 6 samples.

Results

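The cytosolic ribosomal protein genes were described in cells of the mouse lung, after saline or the complement protein C1q had been instilled into the airway. Members were all table rows whose symbol begins with Rpl or Rps followed by a digit, without the Rps6k kinases, Rpl7l1, Rps19bp1 and symbols containing "-ps", which mark pseudogenes. The rule found 85 genes among 26890 rows, 51 of the large subunit (Rpl) and 34 of the small subunit (Rps). Of these, 81 passed the filter on low counts, which kept 13473 genes in all, and 48 of the 81 belonged to the large subunit. The 81 include Rpl32l, Rpl6l, Rpl37rt and Rps4l, which are annotated as processed pseudogenes but do not carry "-ps" in their symbols.

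All animals were C57BL/6 wild-type mice, taken at day 3. One group received saline (n = 3) and the other received C1q at 20 µg per mouse (n = 3), through the trachea. Lungs were digested with Liberase and DNase, the middle layer of a Percoll step gradient was kept, and libraries of 5′ transcript ends were made from poly(A) RNA of its cells. The labels do not say that each sample came from its own mouse, so p-values measure the spread between these samples, which may be technical. The animals' age was not given in the labels.

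Each ribosome is built from a small subunit, which reads the mRNA, and a large subunit, which joins the amino acids. Their proteins are made in near-equal numbers, and surplus copies are degraded. The mRNAs are among the most abundant of the cell and typically begin at a C followed by a run of pyrimidines, the 5′ terminal oligopyrimidine (TOP) tract, through which mTORC1 signalling and LARP1 control their translation. Most members code for short proteins.

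The start sites of members with contrasting values are shown first, because a 5′-end library counts transcripts near these letters. RefSeq start windows (GRCm38.p6) were matched by symbol for 64 of the 85 members. Each sequence runs 5′ to 3′ from 20 bases before to 20 bases from the annotated start on, and capitals mark a C followed by at least 4 C or T letters that begins within 5 bases of the start. Rpl35a also has annotated starts at chr16:33056453 and chr16:33056514, whose windows were counted without a tract. The first 4 are members of short coding length, each with a tract at the start shown.
Rps27: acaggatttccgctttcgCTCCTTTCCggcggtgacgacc
Rps27rt: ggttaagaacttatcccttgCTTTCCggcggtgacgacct
Rpl35a: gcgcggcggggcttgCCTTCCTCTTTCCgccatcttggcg
Rpl38: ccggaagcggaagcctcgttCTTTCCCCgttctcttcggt
The next are Rps28, also short and without a tract at this start, and Rps2, Rpl4 and Rpl5, which are long.
Rps28: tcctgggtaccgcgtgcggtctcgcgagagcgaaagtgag
Rps2: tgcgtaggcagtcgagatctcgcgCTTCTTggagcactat
Rpl4: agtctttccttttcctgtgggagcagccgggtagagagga
Rpl5: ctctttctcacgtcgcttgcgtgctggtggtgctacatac

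The windows lie at chr3:90213629-90213668 for Rps27, chr9:114982720-114982759 for its copy Rps27rt, chr16:33056462-33056501 for Rpl35a and chr11:114668560-114668599 for Rpl38. Rps28 lies at chr17:33824543-33824582, Rps2 at chr17:24720043-24720082, Rpl4 at chr9:64173367-64173406 and Rpl5 at chr5:107900508-107900547. Rps27, Rps27rt and Rps28 are read from the minus strand and the others from the plus strand. Rps27 and Rps27rt shared a run of 38 identical bases within their 300-base windows, so reads of the copy and its parent are hard to assign.

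The tract was present in 33 of 76 member windows (43.4%) and in 18.3% of all 32851 windows of the table. Searched on both strands over the full 300 bases, CCGGAAG, the core bound by ETS-family factors, was present in 32.9% of member windows and 8.86% of all. GCCATNTT, a form of the YY1 motif, was present in 21.1% and 6.05%, and TATAA in 23.7% and 24.9%. Matches of CCGGAAG, GCCATNTT and TATAA overlapped each other in 0 of the 76 windows, and a match describes letters only. The tract was not part of this check, and in Rpl34 it shares letters with CCGGAAG read on the other strand. Members with and without the tract had similar fold changes: the 30 tested members with one had a median log2 fold change (C1q over saline) of −0.59, and the 30 with a window but no tract had −0.56. Without saline replicate 2, described next, the medians were −0.03 and 0.04. A member counted without the tract lacks one only within 5 bases of the annotated start. The windows of Rpl4 and Rpl5, for example, hold runs of C and T letters further upstream.

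Library totals ran from 2227619 to 3650793 counts, so 3 counts correspond to a CPM (counts scaled to a common library total) of 0.822 to 1.35. One row, LOC118568312, took 7.38% to 13.1% of the counts of a library. No pair of libraries agreed within counting noise: chi-square divided by its degrees of freedom was at least 4.74, and it reached 14.6 between saline 2 and saline 3. Saline replicate 2 stands apart for the ribosomal protein genes, so the results that rest on it are given with and without it.

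The members together took 3.91%, 5.29% and 2.66% of the counts in saline replicates 1, 2 and 3. In C1q replicates 1, 2 and 3 they took 3.77%, 3.10% and 3.01%. The C1q libraries all lie inside the range of the saline libraries, whose highest and lowest are replicates 2 and 3. The group means were 3.95% ± 1.32 in saline and 3.29% ± 0.418 in C1q (SD, n = 3 each), and saline without replicate 2 averaged 3.28%. The 95% Wilson interval of the highest share was 5.27% to 5.32% and covers counting error only, so the spread between libraries is far wider than counting error. In bulk libraries, fewer cells rich in these mRNAs and less of them per cell cannot be told apart.

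**Figure D1:**
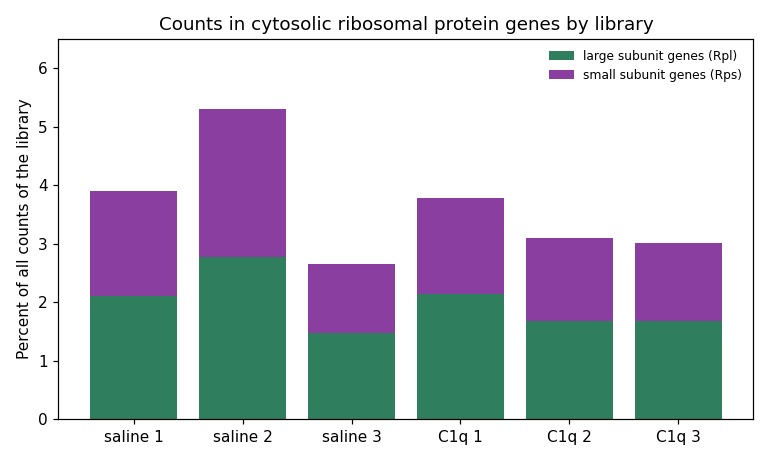
Percent of all counts of a library (vertical axis) in the large-subunit (green) and small-subunit (purple) genes, for each of the 6 libraries. Saline 2 is the highest at 5.29% and saline 3 the lowest at 2.66%, with the C1q libraries between them.

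Both subunits had their highest share in saline 2 and their lowest in saline 3. Large-subunit genes took 1.18, 1.10 and 1.25 counts for each small-subunit count in saline replicates 1 to 3, and 1.30, 1.18 and 1.25 in the C1q replicates. The mean ratio was 1.18 ± 0.0770 in saline and 1.25 ± 0.0627 in C1q (SD, n = 3 each), and the groups overlap. Rows of the 22 pseudogene symbols that the rule leaves out took 0.123% to 0.273% of counts and were also highest in saline 2.

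Comparing C1q with saline asks whether ribosomal protein mRNAs responded to the instilled C1q. No member passed the test: 0 of 81 had an adjusted p below 0.05 (edgeR's quasi-likelihood test, Benjamini-Hochberg over all 13473 genes), where 0.0297% of all genes did, and the smallest adjusted p among members was 0.563. At an unadjusted p below 0.05, 1 member was higher after C1q (Rps2), beside 4.22% of all genes, and 9 were lower, beside 3.94%. DESeq2, run on all 26890 rows without that filter on low counts, called 0 of 85 members, beside 0.134% of all rows. On the 13473 genes kept, limma-voom called 0 of 81 members, beside 0.0223%. By sign, 69 members were lower and 12 higher, while 51.8% of all genes were lower and 48.2% higher. The median log2 fold change was −0.54 over the members and −0.01 over all genes tested.

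Most genes of either subunit were lower. Of the large-subunit genes 41 of 48 were lower with a median of −0.48, and of the small-subunit genes 28 of 33 with a median of −0.65. Their coding lengths had medians of 471 and 436.5 nt. Without saline 2, 29 of the 48 large-subunit genes were higher (median 0.033) and 13 of the 33 small-subunit genes (median −0.056). The difference between the subunits was not tested.

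These signs depend on saline replicate 2. Without it, 42 members were higher and 39 lower, beside 50.2% and 49.8% of all genes, and the median log2 fold change was 0.012. None passed, beside 0.0356% of all genes, and Rps2 had the smallest adjusted p, 0.279 (edgeR). At an unadjusted p below 0.05, 1 member was then higher (4.86% of all genes) and 0 were lower (6.89%). Leaving out saline replicate 3, the library with the lowest share, moved the members the other way: the median was −0.84, 59 of 82 members were lower at an unadjusted p below 0.05, beside 5.51% of all genes, and again none passed after adjustment (smallest adjusted p = 0.110, edgeR), beside 0.0727% of all genes.

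Among the members named for the smallest p in the lower direction, Rps27 and Rps29 are zinc-binding proteins of the small subunit, and both had 1 outlying saline library. Rps27 (GENCODE M21, GRCm38, chr3:90212522-90213651) had 122, 325 and 83.4 CPM in saline replicates 1 to 3 and 77.8, 83.9 and 59.3 CPM in C1q replicates 1 to 3. Saline 2 is high and the groups overlap. The log2 fold change was −1.27 ± 0.44 (SE; adjusted p = 0.563, edgeR) and −0.38 ± 0.21 without saline 2.

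Rps29 (chr12:69157722-69159186) had 78.6, 301 and 67.5 CPM in saline and 75.1, 68.5 and 44.9 CPM in C1q. The other saline libraries lie within or near the range of the C1q libraries. The log2 fold change was −1.25 ± 0.52 (adjusted p = 0.602, edgeR) and −0.11 ± 0.22 without saline 2.

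Rpl36 and Rpl35a, proteins of the large subunit, repeated the pattern. Rpl36 (chr17:56613416-56614243) had 150, 384 and 84.6 CPM in saline against 105, 103 and 75.9 CPM after C1q, with a log2 fold change of −1.13 ± 0.46. Rpl35a (chr16:33056453-33060189) had 130, 275 and 93.9 CPM in saline against 98.1, 85.2 and 85.7 CPM after C1q, with a log2 fold change of −0.89 ± 0.35. In each, saline 2 is the highest library and saline 3 lies within the C1q range. Both had an adjusted p of 0.602 (edgeR), and without saline 2 their values were −0.21 ± 0.24 and −0.23 ± 0.18. RPL35A is among the genes mutated in Diamond-Blackfan anaemia, an inherited failure of red cell production.

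Rps19, a small-subunit protein needed for maturation of its rRNA and the gene most often mutated in that anaemia, is longer than these. It (chr7:24884371-24889806) had 625, 1355 and 334 CPM in saline and 418, 400 and 345 CPM in C1q. Saline 3 is below every C1q library and saline 2 far above them. The log2 fold change was −1.001 ± 0.42 (adjusted p = 0.602, edgeR) and −0.22 ± 0.23 without saline 2.

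On the higher side, Rps2, which sits near the entry of the mRNA channel, was the only one of the 81 tested members whose groups did not overlap. It (chr17:24718116-24721929) had 803, 838 and 688 CPM in saline and 1340, 1013 and 842 CPM in C1q. The lowest C1q library is only just above the highest saline library, and with libraries scaled by TMM the groups overlap. Of all genes tested, 6.07% had every C1q library above and 6.51% every C1q library below the saline libraries, while 0 of the 81 tested members had every C1q library below. The log2 fold change of Rps2 was 0.48 ± 0.20 (adjusted p = 0.602, edgeR), and 0.61 ± 0.21 without saline 2.

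Rpl7, a protein of the large subunit, had 925, 773 and 741 CPM in saline and 1229, 915 and 863 CPM in C1q. Here saline 2 is not raised, C1q 1 is the highest library, and the groups overlap. The log2 fold change was 0.34 ± 0.18 (adjusted p = 0.626, edgeR) and 0.36 ± 0.20 without saline 2. Rpl3, which lies close to the peptidyl transferase centre, Rpl4, which lines the exit tunnel, and Rpl5, which carries the 5S rRNA into the ribosome, had log2 fold changes of 0.25 ± 0.18, 0.22 ± 0.16 and 0.18 ± 0.17. In all of these C1q 1 was the highest library, and none passed (adjusted p = 0.703, 0.713 and 0.775, edgeR). Without saline 2 their values were 0.33, 0.26 and 0.20. Leaving out C1q 1 instead lowered them to 0.16, 0.089 and 0.057, and gave 0.17 for Rpl7 and 0.30 for Rps2.

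**Figure D2:**
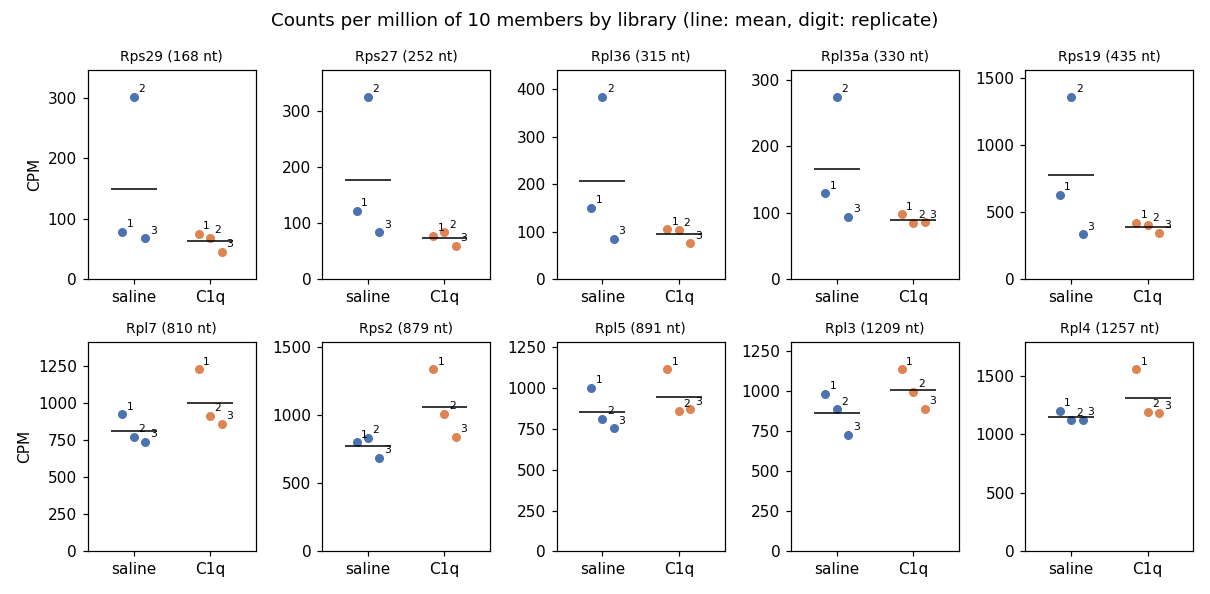
CPM (vertical axis, from 0) of the 5 members with the smallest p in each direction, ordered by coding length, for saline (blue) and C1q (orange). Points are libraries with their replicate number and lines are group means. Saline 2 stands above all other libraries in the upper row and does not in the lower row, where C1q 1 is highest.

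Saline 2 was the highest of the 6 libraries for 68 of 81 members (84.0%), while the same held for 13.1% of all genes tested. The members that differ are above 600 nt in coding length, apart from Rps4l, which has no annotated coding length. C1q 1 was highest for 10 members, which are Rps6, Rps4x, Rps3a1, Rpl7a, Rpl7, Rps2, Rpl6, Rpl5, Rpl3 and Rpl4, and saline 1 for Rps3, Rpl8 and Rps4l. The ratio of saline 2 to the mean of the other saline libraries ran from 0.926 in Rpl5 to 4.72 in Rps28. Saline 3 was the lowest library for 48 members, C1q 3 for 20 and C1q 2 for 12.

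The order of the members by coding length was noticed in these data and is given as a description. Length is that of the principal coding sequence in GENCODE M21, available for 77 tested members, and this definition was chosen after a plot by the longest coding sequence had been seen. All 57 members of up to 600 nt were highest in saline 2, against 8 of 18 of 601 to 900 nt and 0 of 2 longer ones (Rpl3 and Rpl4). The deviation of saline 2, its log2 CPM minus the mean over the 6 libraries, had a median of 1.56 over the 11 members of up to 300 nt. It was 1.13 over the 27 of 301 to 450 nt, 0.75 over the 19 of 451 to 600 nt and 0.16 over the 18 of 601 to 900 nt.

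Across the 77 members, the deviation of saline 2 correlated with log2 coding length at Pearson's r = −0.84 and Spearman's rho = −0.90. These points share their libraries and depths, so the genes are not independent. Deviations of the 6 libraries sum to 0 for each gene, so a slope in saline 2 is balanced in the others: r was 0.75 in C1q 3, 0.69 in C1q 1, 0.40 in saline 3, 0.21 in C1q 2 and 0.16 in saline 1. With the longest coding sequence r in saline 2 was −0.86, and with transcript length −0.49.

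**Figure D3:**
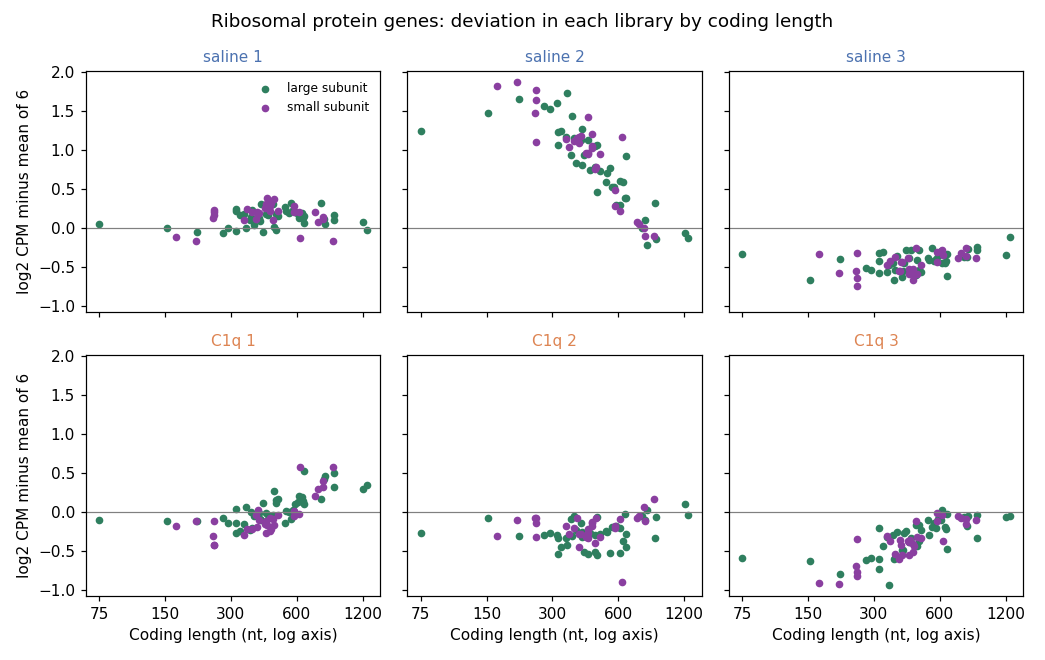
Deviation of each library (log2 CPM minus the mean over 6 libraries, vertical axis) against coding length in nt (log axis), 1 panel per library and 1 point per member, with large-subunit genes in green and small-subunit genes in purple. In saline 2 the points descend from above 1.5 for short members to near 0 for long ones (r = −0.84), and they rise with length in C1q 1 and C1q 3.

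Rpl41 lies off this line. It encodes the smallest ribosomal protein, with a coding length of 75 nt, and had 282, 644 and 216 CPM in saline and 254, 226 and 181 CPM in C1q. Saline 2 is its highest library, but the ratio of saline 2 to the other saline libraries was 2.58, below the 4.12 of Rps29. It was singled out after the plot had been seen.

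The fold change followed the same order. By rising length, the median log2 fold change was −0.94, −0.70, −0.43, 0.03 and 0.23 over the members of up to 300, 301 to 450, 451 to 600, 601 to 900 and 901 to 1500 nt, where the last class holds 2 genes. All 57 members of up to 600 nt were lower after C1q, and 12 of the 20 longer ones were higher. Without saline 2 the medians were −0.06, −0.07, −0.00, 0.21 and 0.30, and 19 of the 20 members above 600 nt were higher. Pearson's r between fold change and log2 coding length was 0.83 over all libraries and 0.57 without saline 2 (77 members).

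**Figure D4:**
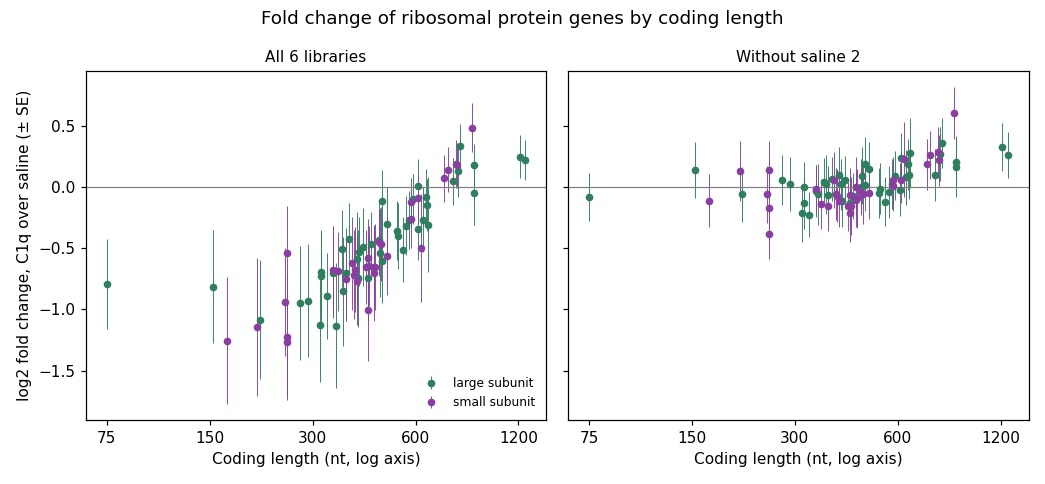
Log2 fold change, C1q over saline, with its standard error (vertical axis) against coding length in nt (log axis), 1 point per member, for all 6 libraries (left) and without saline 2 (right). The left panel rises from near −1 to above 0 (r = 0.83), and in the right panel the shorter members lie around 0 (r = 0.57).

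Other genes shared the slope of saline 2 in weaker form. Over 12160 tested genes that are not members, the deviation of saline 2 correlated with log2 coding length at r = −0.35. Their strongest correlation was in saline 3, with r = 0.43, where the members had 0.40. Their fold change had r = −0.03, and −0.22 without saline 2, where the members had 0.83 and 0.57. Non-members of up to 300 nt (249 genes) had a median deviation of 0.52 in saline 2, where the members had 1.56, and 58.2% of them were highest in saline 2. Non-members of 301 to 450 nt had 0.25 and those above 2500 nt −0.21. Classed by transcript length instead, short non-members lay closer to the members. At 451 to 600 nt, 133 non-members had a median deviation of 0.87 and 15 members 1.12. Of these non-members 75.9% were highest in saline 2, and the median log2 fold changes were −0.51 and −0.70. At 301 to 450 nt the deviations were 0.99 (26 non-members) and 1.66 (7 members), and at 601 to 900 nt 0.27 and 0.75. Mitochondrial ribosomal protein genes, which build the separate ribosome of mitochondria, gave r = −0.60 over 78 genes. The part of transcript length in the members' result was not tested beyond these values and the length offset given next.

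**Figure D5:**
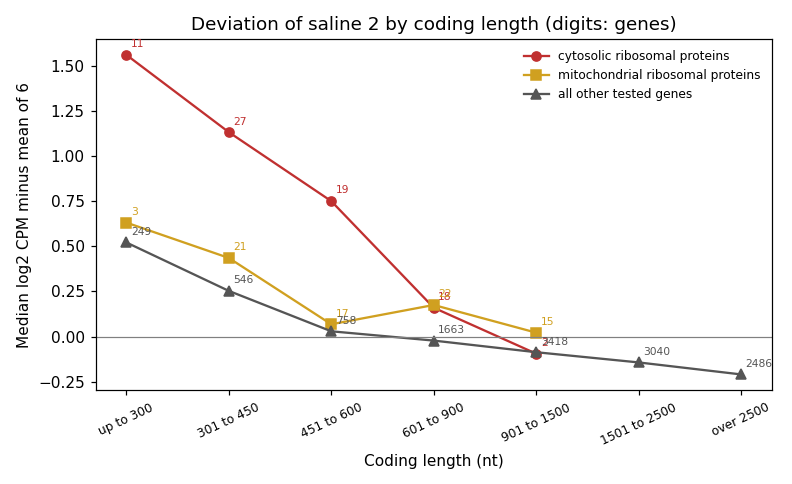
Median deviation of saline 2 (log2 CPM minus the mean over 6 libraries, vertical axis) by class of coding length in nt (horizontal axis), for cytosolic ribosomal protein genes (red circles), mitochondrial ribosomal protein genes (yellow squares) and all other tested genes (grey triangles). Digits give the genes in each class. All 3 lines are higher in the shortest class than in their longest, the mitochondrial line with a rise at 601 to 900 nt, and the members start highest, at 1.56.

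When each library's trend with coding length, fitted on non-members, was taken out as an offset, the members' median log2 fold change was −0.42. The offset did not remove the members' own trend: their fold change still correlated with log2 coding length at r = 0.69, against 0.83 before. Saline 2 was part of this fit, and the offset was not run without it. Of 77 members, 37 were then lower at an unadjusted p below 0.05, beside 5.17% of all genes, and none passed after adjustment, beside 0.351% of all genes. The smallest adjusted p was 0.124, for Rps27 (edgeR). Without a filter on low counts, 28 of 85 members passed, all of them lower, beside 1.39% of all genes. With the same setting and saline 2 left out, 0 of 85 passed, beside 1.72% of all genes.

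Among the most abundant members by mean CPM were Rps4x, Rpl10, Rpl4, Rpl8, Rps3a1, Rps3, Rps9, Rpl13a and Rpl3, and their log2 fold changes lay between −0.34 (Rpl13a) and 0.25 (Rpl3), or −0.02 and 0.33 for the same genes without saline 2. Rps4x, the X-linked form of a small-subunit protein, had 1519, 1392 and 1088 CPM in saline and 1751, 1463 and 1254 CPM in C1q. Rpl10, which completes the large subunit late in its assembly, had 1421, 1702 and 969 CPM in saline and 1431, 1273 and 1119 CPM in C1q. In both the groups overlap, and saline 3 is the lowest library.

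Per kb of coding sequence, mean levels differed widely although the proteins are needed in near-equal numbers. Rpl41 had 4006 CPM per kb, Rpl10 2054 and Rps16 1850, while Rpl37 had 182 and Rpl36al 214. In a 5′-end library counts need not scale with length, so this scale may overstate the level of short genes.

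Replicate spread was wide for the members. The pooled within-group SD of log2 CPM had a median of 0.517 over the 81 members and 0.239 over 10196 other genes in the same range of mean CPM. Without saline 2 the medians were 0.312 and 0.216. The spread was widest in Rps28 (0.984), Rpl34, Rps27rt, Rps29 and Rpl37rt, and narrowest in Rpl4 (0.164) and Rpl3. Rps28 had 57.8, 239 and 43.5 CPM in saline and 60.0, 60.4 and 34.1 CPM in C1q, a single high library. Rpl4, a long member, had 1202, 1121 and 1126 CPM in saline and 1557, 1195 and 1181 CPM in C1q.

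Several members are paralogues or retroposed copies of another member, and where the sequences are near-identical the counts of the pair are uncertain. Rps27l, a p53-responsive paralogue of Rps27, had 92.1, 66.7 and 71.6 counts per 100 of its parent in saline replicates 1 to 3 and 119, 113.6 and 133 in the C1q replicates. All C1q libraries lie above all saline libraries in this ratio, which was not tested and was seen among several pairs. Rps23rg1 to Rps23 and Rpl3l to Rpl3 had every C1q library below saline, both from few counts of the copy. The other pairs overlapped. Rps27l itself had 112, 217 and 59.8 CPM in saline and 92.6, 95.3 and 79.0 CPM in C1q. Its log2 fold change was −0.54 ± 0.38 (adjusted p = 0.702, edgeR), and 0.14 without saline 2. Rps27 and Rps27l have the same coding length of 252 nt, and the ratio of saline 2 to the other saline libraries was 3.16 in the first and 2.52 in the second.

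The remaining copies ranged from a few counts per 100 of the parent to more than the parent itself. Rps27rt had 37.2 to 52.4 counts per 100 of Rps27, Rpl37rt 113 to 147 per 100 of Rpl37, and Rpl22l1 52.7 to 65.6 per 100 of Rpl22. Rpl36al had 72.9 to 111 per 100 of Rpl36a, Rpl6l 17.9 to 22.3 per 100 of Rpl6, and Rps4l 3.67 to 6.40 per 100 of Rps4x. Rpl32l had 1.51 to 2.96 per 100 of Rpl32, and with 10.0 CPM on average it was the least abundant member tested. Rpl37 and Rpl38 followed it.

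The 4 members not tested had at most 13 counts in any library. Rpl3l, the form of Rpl3 in heart and skeletal muscle, had 2, 4 and 1 counts in saline and 0, 0 and 1 in C1q. Rps23rg1, a retroposed copy of Rps23, had 11, 13 and 5 counts and then 3, 5 and 3, fewer in each C1q library than in saline 1 or 2. In CPM its values were 3.68, 4.89 and 1.94 in saline and 0.822, 1.68 and 1.35 in C1q. Its groups did not overlap, and the C1q libraries lie near the level of 3 counts. Rpl39l and Rpl10l, known from the testis, had at most 2 counts and 1 count in any library.

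Ribosomal proteins outside the naming rule split by length in the same way. Rplp0, the base of the ribosomal stalk (951 nt), had 1698, 1583 and 1255 CPM in saline and 2383, 1869 and 1775 CPM in C1q, with no overlap and a log2 fold change of 0.44 ± 0.19. Rpsa (885 nt) had a log2 fold change of 0.30 ± 0.19. The short stalk proteins Rplp1 and Rplp2 had −0.82 ± 0.35 and −0.95 ± 0.45, and Fau, which encodes a ribosomal protein fused to a ubiquitin-like sequence, had −0.60 ± 0.31. None of the 5 passed (adjusted p = 0.602 to 0.676, edgeR). Without saline 2 the short ones had −0.21, −0.06 and −0.08, and Rplp0 and Rpsa had 0.54 and 0.37.

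Genes that act with the ribosome did not pass either: in each of the lists below 0 genes had an adjusted p below 0.05 (edgeR), beside 0.0297% of all genes. Elongation factors and other genes with TOP mRNAs were higher in 17 of 20, with a median log2 fold change of 0.18, and Eef2, which moves the ribosome along the mRNA, had 0.30 ± 0.14. Initiation factors were higher in 22 of 27 (median 0.12, Eif3m 0.31 ± 0.15). Ribosome biogenesis genes were higher in 28 of 45 (median 0.04), among them Polr1c, a subunit of RNA polymerases I and III, at 0.70 ± 0.16 and the transcription factor Myc at 0.79 ± 0.21. Mitochondrial ribosomal proteins were higher in 31 of 78 (median −0.08, Mrpl57 −0.93 ± 0.28 and Mrpl3 0.55 ± 0.17), and without saline 2 in 47 of 78 (median 0.046). Genes of mTORC1 and its 4E-BP targets were higher in 5 of 18 (median −0.08, Tsc1 −0.42 ± 0.21), those of the integrated stress response in 10 of 17 (0.12, Atf5 −0.53 ± 0.22) and those of ribosome surveillance in 9 of 14 (0.02, Pelo −0.64 ± 0.26), or 6 of 14 without saline 2 (median −0.012). Without saline 2 the medians of the other 5 of these 7 lists kept their sign.

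Markers of lung cells varied over the same libraries, and their part in the ribosomal protein values was not tested. Lung was recognisable by its markers, since alveolar type 2 markers summed to 26080 to 43988 CPM in saline and 33240 to 36446 in C1q. Club and ciliated cell markers (1 of 10 higher with a median log2 fold change of −0.24, or 4 of 10 and −0.08 without saline 2) summed to 9728 to 23700 in saline and 7355 to 11811 in C1q, and 7 of the 10 were highest in saline 2. T cell markers (0 of 8 higher, Tcf7 −0.70 ± 0.20) summed to 90.3 to 135 CPM in saline and 72.7 to 92.6 in C1q, and B cell markers (4 of 10 higher) to 308 to 431 and 240 to 396, but 0 markers of either were highest in saline 2. Cell cycle genes were higher in 13 of 14 (Top2a 1.66 ± 0.42, 443, 368 and 386 CPM summed in saline and 663, 444 and 554 in C1q).

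Of the remaining lists, fibroblast markers were higher in 9 of 10, monocyte and macrophage markers in 8 of 9, neutrophil in 8 of 9, alveolar type 2 in 7 of 10, alveolar macrophage in 6 of 10 and alveolar type 1 in 3 of 10. Smooth muscle and pericyte markers were higher in 3 of 10, endothelial in 0 of 10, striated muscle in 2 of 5 and erythroid in 0 of 4. Genes induced by tissue dissociation were higher in 6 of 18. Nuclear RNAs, which mark unspliced or nuclear material, were higher in 0 of 5 and summed to 5643, 3770 and 10662 CPM in saline and 3645, 3825 and 5481 in C1q, highest in saline 3, where the ribosomal protein share was lowest. None of these lists held a gene that passed (edgeR), and Ckm, Nppa and Slc4a1, which mark striated muscle and red cells, were below 1 CPM on average. All 26890 rows had counts in some library, so a marker at 0 in all 6 libraries could not be seen. Of the 12 listed T cell markers, 9 had a row.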

How the data were processed

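The values deposited by the authors are raw counts per gene symbol and library, not normalised. The tools cutadapt (2.1.0) and Bowtie2 (2.4.2) and the build GRCm38 are named, without roles, per the submitters' processing notes. How reads were counted, and whether strand, multi-mapped reads or molecular identifiers were taken into account, was not given in the labels or headers, so overlapping genes and near-identical copies are uncertain. Groups were taken from the treatment label, and replicates were numbered in order of deposition, which pairs nothing. Because every sample's treatment protocol describes C1q, only the treatment label identifies saline.

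CPM values are counts scaled to a common library total, with 0.5 added before log2. Genes were kept by filterByExpr and, after TMM scaling, tested in edgeR 4.0.16 (R 4.3.3, glmQLFTest, two-sided), with p-values adjusted by Benjamini-Hochberg over all 13473 genes and a threshold of 0.05. The common biological coefficient of variation was 19.5%. Standard errors came from the log2 fold change and its F statistic. The script was tested on simulated data. Intervals are 95% Wilson intervals.

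The members and lists were chosen with earlier results of these data known. Members named were the 10 most abundant, the 5 with the smallest p in each direction, the 5 with the widest and 3 with the narrowest spread, paralogues, members whose groups do not overlap, and the lowest and untested ones, with the leading genes of each list. A few genes that this rule would name are not reported here. Rps16, Rpl41, the members highest in C1q 1 or saline 1 and the low markers were named after their values were seen. Lists beside the members covered translation, mTORC1, stress, surveillance, cell types, cell cycle, dissociation and nuclear RNA.

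Positions come from GENCODE M21 and start windows from RefSeq. Alternatives were other scalings, filters, DESeq2 1.42.0, limma-voom (limma 3.58.1), other denominators and leaving out each library. The length offset (loess span 0.5), the denominator without LOC118568312 and the unfiltered fit without saline 2 were added after the data had been seen.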

Additional observations from a re-analysis of the deposited data

How the results depend on the processing

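No paired analysis was possible because the labels give no replicate number shared by the groups. The count of all genes that passed, 4 in the edgeR test, was 373 without a filter on low counts, 36 with DESeq2, 43 with the length offset, 455 without a filter and without saline 2, and 0 to 10 when single libraries were left out. Ribosomal protein genes that passed numbered 28 without a filter and 0 in the other settings run. Their median log2 fold change ran from −0.84 (without saline 3) to 0.012 (without saline 2), and was 0.044 without a filter and without saline 2. Other translation genes that passed numbered 7 without a filter and 1 when saline 2 was also left out. Members with every C1q library above saline, 1 by library totals, were 0 with TMM scaling, 0 with TMM factors computed without the members, and 1 to 5 when single libraries were left out. Those with every C1q library below numbered 54 without saline 3, 6 without C1q 1, 1 without C1q 2 and 0 without each of the others. The share over all genes was not computed for these exclusions. Groups separate more readily with fewer libraries, so these counts are not read as a result about the members. Over the same exclusions, named members that changed sign had log2 fold changes of Rpl10 −0.29 to 0.19, Rpl8 −0.13 to 0.19, Rps3 −0.10 to 0.18, Rps9 −0.30 to 0.056, Rps28 −1.54 to 0.13, Rpl37rt −1.38 to 0.076, Rps27l −0.90 to 0.14, Rpl22l1 −0.79 to 0.041, Rps4l −0.37 to 0.081, Rpl6l −0.36 to 0.29, Rpl37 −1.29 to 0.022, Rpl22 −0.67 to 0.069, Rpl6 −0.38 to 0.17, Rpl32 −0.92 to 0.10 and Rpl39 −1.19 to 0.14. Under the other scalings, filters and tools and with the length offset, 0 named members changed sign. The causes of these shifts were not tested.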
